A study of Canis lupus familiaris with 4 samples.

Results

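The genes described here are 34 DNA repair and replication checkpoint genes measured in canine CD8+ T cells. They were chosen by name, as the rows of the deposited gene tables whose symbol is one of a fixed list, and all 34 were found among the 11691 genes present in both tables. They fall into 14 genes of homologous recombination, 10 of the Fanconi pathway, 2 of mismatch repair and 8 checkpoint kinases and sensors. CHEK2 shares its row with TTC28 in the deposited tables, so its values cannot be assigned to either gene and are treated as uncertain. By reference annotation, 14 members overlap another coding gene. These are RAD54L, XRCC3, RAD50, EME1, MUS81, FANCA, FANCC, FANCD2, FANCI, FANCL, MSH6, CHEK2, ATM and ATRIP. Since the strand used in counting is not known, some of their reads may be shared with the neighbour.

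Per the labels, blood mononuclear cells of healthy mixed-breed dogs spent 14 to 20 days in culture in the presence of IL-2 at 2500 IU/mL and 2-mercaptoethanol at 50 µM, both also present after purification of the CD8+ cells. The exosome group received vesicles of CLBL-1, a dog cell line from a diffuse large B cell lymphoma, and the control group received PBS. Doses of 50, 100 and 200 µg/mL stand in the treatment label, and the design text names 50 µg/mL for the sequenced cells. Each group holds 2 messenger RNA libraries, 1 from each of 2 dogs, and the exosome and control libraries of a deposited table are called a pair. The names of the tables hold a dog's number and not its sex. By that number, pair 1 belongs to the female dog and pair 2 to the male dog. Exposure is 48 h in all labels, whereas the column names read 24 h for pair 1 and 48 h for pair 2. Dog, sex and any difference in exposure time cannot be told apart between the pairs, and the sources used here give no ages.

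Homologous recombination repairs broken or stalled DNA by copying the sister chromatid. It needs resection of the ends, strand exchange prepared by the BRCA1, PALB2 and BRCA2 proteins, and resolution of the joined molecules. The Fanconi proteins detect crosslinks that stop replication forks and pass them to the same machinery, while mismatch repair removes copying errors. The kinase ATR, with its partner ATRIP and activator TOPBP1, senses single-stranded DNA at stalled forks and signals through CHEK1, and ATM senses double-strand breaks and signals through CHEK2. In T cells driven to divide, many but not all of these genes are transcribed mainly around S phase, through the E2F and DREAM regulators.

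Expression is given as the scaled read count that the authors deposited, which is the number of reads divided by 1 factor per library. Within a pair the control value is given first and the exosome value second. Reads over the shared genes numbered 12325953 (control) and 10056143 (exosome) in pair 1, then 9417298 and 12046358 in pair 2. The members' values ran from 3.40 to 458, or 32 to 4642 reads, and 10 members had under 100 reads in at least 1 library. All 8 T cell markers were measured, with summed values of 1888 and 3780 in the control libraries and 1567 and 3584 in the exosome libraries. All 8 had a higher mean in pair 2. CD8B stood at 73.4 in the control of pair 1 and 479 in that of pair 2, and CD5 at 13.3 and 347. Of 10 B cell markers 6 were measured, and apart from a row that CD79A shares with the ribosomal gene RPS19 their summed values were 34.9 and 11.1 in the controls and 18.7 and 8.57 with exosomes. Summed values of the 5 measured NK cell markers were 656 and 317 in the controls and 1063 and 294 with exosomes. The list's median log2 fold was -1.01 in pair 1, where KLRD1 stood at 213 and 666, against -0.37 in pair 2, and NCR1, NCR3 and KLRB1 were below their controls in each pair. The part of other cell types in the members' values was not tested. In bulk libraries such as these, fewer cells of a type and less RNA per cell cannot be told apart.

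Values of the members leaned downwards with exosomes, and the size of the difference varied widely between genes. By limma on log2(value + 1) with the pair as a block, 2 of the 34 members were called lower at an adjusted p of 0.05 and 0 higher. These were RAD51AP1, which promotes strand exchange, and EXO1, a nuclease of mismatch repair and end resection. Of all genes tested, 0.496% were called lower and 0.248% higher. At an unadjusted p under 0.05, 11 members were lower and 0 higher, against 9.96% and 5.95% of all genes. In 22 of the 34 members the exosome library was below its control in both pairs, in 1 it was above in both, and in 11 the pairs had folds of opposite sign. The corresponding shares of all genes were 32.5%, 27.8% and 39.7%. The members' log2 folds had a median of -0.27 in pair 1 against -0.29 in pair 2, beside -0.02 and -0.03 over all genes. Both exosome libraries lay below both controls in 8 members (14.3% of all genes) and above both in 1 (12.9% of all genes).

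**Figure D1:**
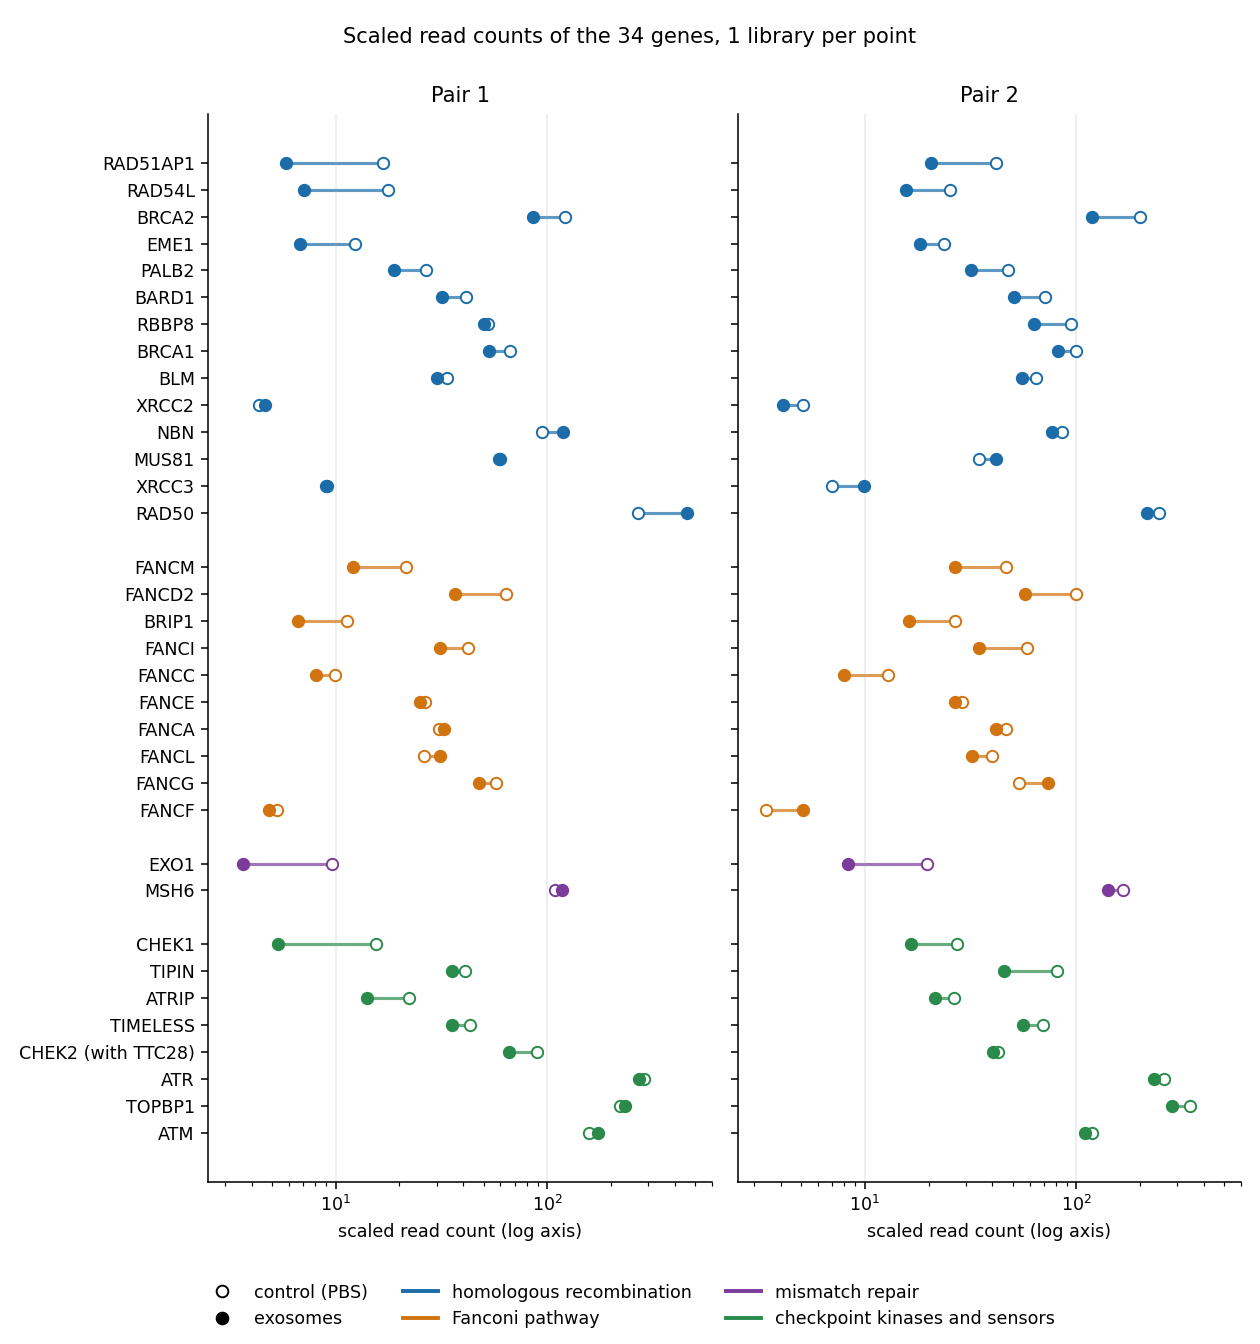
Scaled read counts on a log axis for the 34 genes in pair 1 (left) and pair 2 (right), with 1 library per point, open for the PBS control and filled for exosomes, coloured by sub-group. Filled points lie left of open ones in both panels for 22 genes. Averaged over both pairs, the distances are longest for RAD51AP1 and EXO1, while ATR and ATM show short lines.

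RAD51AP1 and RAD54L had the lowest mean folds of the homologous recombination sub-group. RAD51AP1 fell in both pairs, from 16.6 to 5.82 and from 41.5 to 20.4. Its groups overlapped, because the exosome library of pair 2 was above the control of pair 1, yet each exosome library was below its own control. The log2 fold was -1.18 ± 0.23 (SE of limma, 2 pairs), with an adjusted p of 0.0423 by limma. This SE rests largely on the variance of other genes and is not the spread of the pairs, whose own folds were -1.37 and -0.99. RAD54L, a motor protein that remodels DNA during strand exchange, stood at 17.7 and 7.10 in pair 1, then 25.3 and 15.6 in pair 2. Both exosome libraries of RAD54L lay below both controls, but its adjusted p of 0.0766 by limma missed the threshold (log2 fold -0.94 ± 0.24, 2 pairs).

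The mediators that prepare strand exchange had smaller differences. BRCA2, which acts on resected single-stranded DNA, stood at 121 and 85.3 in pair 1, then 200 and 118 in pair 2, again with both exosome libraries below both controls. Its log2 fold was -0.63 ± 0.23 (2 pairs), with an adjusted p of 0.203 by limma. PALB2, the bridge between BRCA1 and BRCA2, stood at 26.8 and 18.9 in pair 1, then 47.2 and 31.9 in pair 2. The values of BRCA1, a ubiquitin ligase that directs repair towards recombination, were 66.8 and 53.2, then 99.1 and 81.6. Its obligate partner BARD1 had 41.4 and 31.9 in pair 1, then 70.7 and 50.6 in pair 2. All of these were lower with exosomes in both pairs without passing the test, with log2 folds of -0.30 for BRCA1, -0.42 for BARD1 and -0.52 for PALB2. XRCC2 and XRCC3, which also assist strand exchange, had few reads. XRCC2 stood at 4.32 and 4.63 in pair 1, then 5.10 and 4.09 in pair 2, and XRCC3 at 9.02 and 9.07, then 7.01 and 9.91. XRCC3 was the 1 member with higher values in both pairs, by 0.01 and 0.45 on the log2 scale (adjusted p = 0.723 by limma).

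End processing and resolution genes showed no common direction. RAD50 and NBN belong to the complex that binds broken ends and helps to activate ATM. RAD50 stood at 269 and 458 in pair 1 but at 245 and 215 in pair 2, the highest mean fold of the sub-group (log2 fold 0.29 ± 0.26, 2 pairs, adjusted p = 0.684 by limma). NBN had the same signs, with 94.6 and 119 in pair 1, then 85.4 and 77.0 in pair 2. RBBP8, also called CtIP, which starts resection, stood at 52.6 and 50.0, then at 94.2 and 63.1. For BLM, a helicase that dissolves joined molecules, the values were 33.7 and 30.2 in pair 1, then 64.2 and 55.1 in pair 2. The nuclease partners EME1 and MUS81 differed from each other. EME1 stood at 12.3 and 6.80 in pair 1, then 23.6 and 18.2 in pair 2, whereas MUS81 had 59.5 and 59.4, then 34.5 and 41.5. Over the 14 genes of this sub-group 1 was called lower and 0 higher, and its medians were -0.24 (pair 1) and -0.32 (pair 2).

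In the Fanconi pathway the monoubiquitinated pair and the fork remodelling helicases were lower in both pairs, while genes of the core complex had no common direction. FANCD2, which is ubiquitinated at stalled forks, stood at 63.5 and 36.6 in pair 1, then 99.2 and 57.1 in pair 2. FANCI, its partner, had 42.3 and 31.0, then 58.3 and 34.6. Both exosome libraries lay below both controls in FANCD2 and in FANCI, although neither passed the test. For FANCD2 the log2 fold was -0.78 ± 0.23 (2 pairs), almost equal in the pairs at -0.78 and -0.79, with an adjusted p of 0.107 by limma. FANCM, the translocase that anchors the core complex, stood at 21.4 and 12.0 in pair 1, then 46.5 and 26.6 in pair 2 (log2 fold -0.78 ± 0.23, 2 pairs, adjusted p = 0.107 by limma). BRIP1, a helicase that binds BRCA1, had 11.3 and 6.61, then 26.6 and 16.1 (log2 fold -0.69 ± 0.23, 2 pairs, adjusted p = 0.151 by limma). In both FANCM and BRIP1 the exosome library of pair 2 was above the control of pair 1, so the groups overlapped.

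Among the core complex genes, FANCC stood at 9.97 and 8.09 in pair 1, then 12.8 and 7.94 in pair 2, with both exosome libraries below both controls. FANCE, which links the core complex to FANCD2, had 26.5 and 25.0, then 28.8 and 26.5, also with both exosome libraries below both controls, though by little. FANCA had 30.8 and 32.6 in pair 1, then 46.4 and 41.5 in pair 2. None of FANCC, FANCE and FANCA passed the test, and FANCA had opposite signs in the pairs. FANCL, the ubiquitin ligase of the complex, stood at 26.1 and 31.0 in pair 1, then 39.8 and 32.0 in pair 2. FANCG was lower with exosomes in pair 1, at 57.1 and 47.3, and higher in pair 2, at 53.4 and 73.5. FANCF, the adaptor of the complex and among the members with the fewest reads, had 5.26 and 4.83, then 3.40 and 5.11, and the highest mean log2 fold of the sub-group (0.19 ± 0.24, 2 pairs, adjusted p = 0.791 by limma). Of the 10 Fanconi genes 0 were called in either direction by limma and 4 were lower at an unadjusted p under 0.05. The medians of the sub-group were -0.27 in pair 1 and -0.47 in pair 2.

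Both mismatch repair members stood far apart in their response. EXO1 fell in both pairs, from 9.65 to 3.65 and from 19.7 to 8.34, and both exosome libraries were below both controls. Its log2 fold was -1.17 ± 0.23 (2 pairs), with pair values of -1.20 and -1.15 and an adjusted p of 0.0403 by limma. The exosome library of pair 1 held 37 EXO1 reads, so the depth behind that value was low. MSH6, which recognises mismatches, stood at 109 and 117 in pair 1, then 166 and 140 in pair 2 (log2 fold -0.07 ± 0.23, 2 pairs, adjusted p = 0.933 by limma). MSH6 was thus slightly above its control in one pair and below it in the other.

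Checkpoint genes split between CHEK1 and the large sensor kinases. CHEK1, the effector kinase of the ATR branch, stood at 15.5 and 5.33 in pair 1, then 27.2 and 16.4 in pair 2. Its exosome library of pair 2 lay just above the control of pair 1, and the log2 fold of -1.04 ± 0.25 (2 pairs) had an adjusted p of 0.0648 by limma. ATR stood at 287 and 272 in pair 1, then 260 and 233 in pair 2. TOPBP1 had 221 and 233, then 342 and 284. ATM had 158 and 174, then 118 and 109, the highest mean fold of the sub-group at 0.01 on the log2 scale. In ATR and ATM the exosome and control values of a pair were close, while TOPBP1 was 17.0% lower with exosomes in pair 2.

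ATRIP, the partner that brings ATR to single-stranded DNA, stood at 22.1 and 14.0 in pair 1, then 26.4 and 21.5 in pair 2, with both exosome libraries below both controls (log2 fold -0.45 ± 0.23, 2 pairs, adjusted p = 0.372 by limma). TIMELESS and TIPIN form the complex that travels with the fork and helps CHEK1 activation. TIPIN had 40.8 and 35.6 in pair 1, then 81.0 and 45.4 in pair 2, so most of its difference came from pair 2 (log2 fold -0.51 ± 0.25, 2 pairs, adjusted p = 0.34 by limma). TIMELESS stood at 43.2 and 35.5, then at 69.2 and 55.8. The shared row of CHEK2 and TTC28 had 89.9 and 65.7 in pair 1, then 42.6 and 40.3 in pair 2. All 8 checkpoint rows were lower with exosomes in pair 2 and 6 were lower in pair 1, while 0 were called by limma. Of all 11691 genes, 6190 were lower in pair 2 and 6054 in pair 1. The medians of the 8 checkpoint rows were -0.23 for pair 1 and -0.28 for pair 2.

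**Figure D2:**
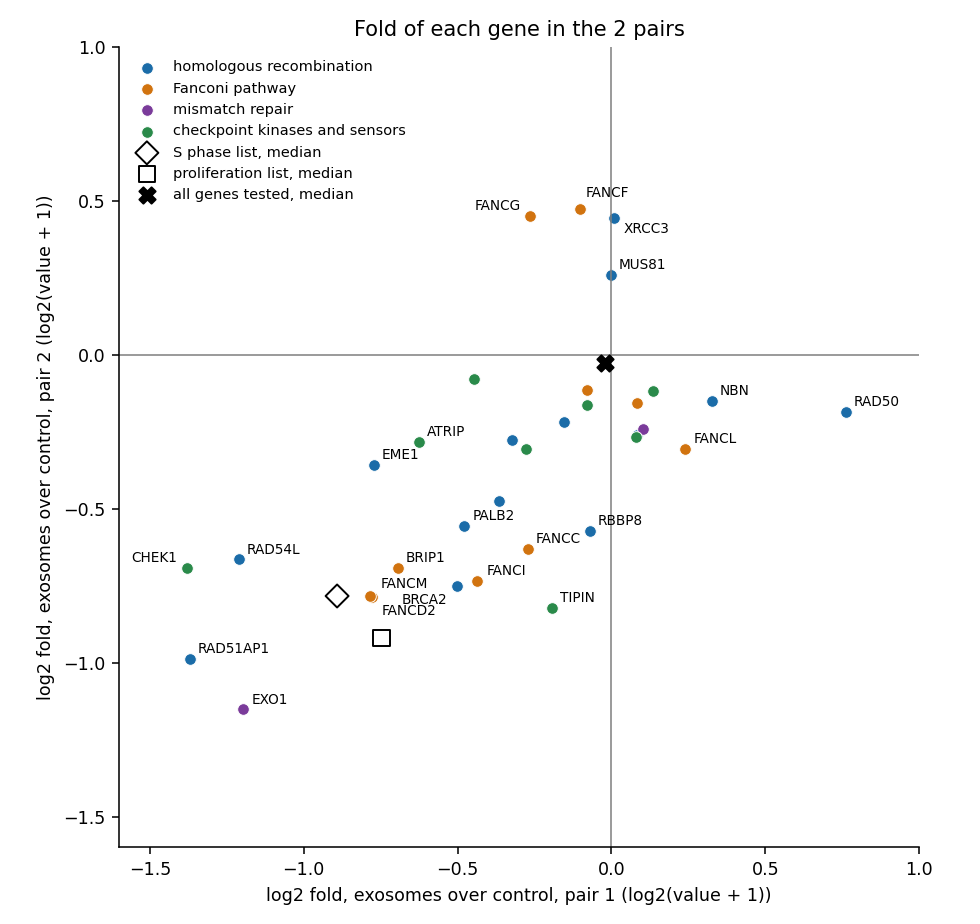
Log2 fold of exosomes over control on the log2(value + 1) scale in pair 1 (horizontal) and pair 2 (vertical) for the 34 genes, coloured by sub-group, with the medians of the S phase list, the proliferation list and all genes tested. RAD51AP1 and EXO1 lie at or below the S phase median in both pairs, and RAD50 lies alone at the right with 0.76 in pair 1 and -0.18 in pair 2.

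The plot of pair folds shows how far the pairs resembled each other. Across the 34 members the folds of pair 1 and pair 2, which share no library, correlated at r = 0.614 (Spearman rho = 0.67). Over all 11691 genes r was 0.348 (rho = 0.328), and over the 7122 genes with a mean value of at least 20 it was 0.435 (rho = 0.399). These are descriptions across genes, which are not independent replicates. There were 12 members with a mean log2 fold of -0.5 or lower, and all 12 were lower in both pairs. They were BRCA2, PALB2, RAD51AP1, RAD54L, EME1, FANCD2, FANCI, FANCM, BRIP1, EXO1, CHEK1 and TIPIN. Another 13 members lay within 0.2 of 0, among them ATM, ATR, TOPBP1, NBN, MUS81 and MSH6.

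Few members differed by 2-fold or more within a pair. In pair 1, 4 members were at least 2-fold lower by the deposited values, against 7.79% of all genes, and 0 were at least 2-fold higher (4.13% of all genes). In pair 2 the counts were 2 lower (3.28% of all genes) and 0 higher (3.18% of all genes). With 1 library per arm these counts have no test.

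Other genes of the same pathways were read from lists fixed by name. Of 36 measured further genes of homologous recombination and the Fanconi pathway, 20 were lower in both pairs and 3 higher in both. Over all genes these shares were 32.5% and 27.8%, against 55.6% and 8.33% in this list. RMI2, a partner of BLM, fell from 4.16 to 1.28 and from 9.23 to 3.07 (log2 fold -1.25 ± 0.23, 2 pairs, adjusted p = 0.0327 by limma). The genes with the highest values named next were not called. REV3L, the catalytic subunit of a translesion polymerase, stood at 252 and 225, then 258 and 196. USP1, which removes ubiquitin from FANCD2, had 194 and 160, then 313 and 213. FAN1, a nuclease, had 203 and 183, then 72.4 and 89.6. The row that SLX4 shares with NLRC3 had 302 and 196, then 297 and 326. The 6 genes of a second mismatch repair list had 0 calls.

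Among 20 further checkpoint genes 0 were called and the median log2 folds were -0.16 and -0.12. MDC1, a scaffold at broken DNA, stood at 274 and 286, then 223 and 278. The 11 measured end joining genes had 0 calls and medians of -0.05 and -0.09, with the kinase PRKDC at 231 and 223 in pair 1, then 212 and 189 in pair 2. Of 20 base excision and single strand break genes 1 was called lower. This was FEN1, the flap endonuclease of Okazaki fragments, which fell from 11.8 to 3.45 and from 17.7 to 7.47 (adjusted p = 0.0323 by limma). The medians of this list were -0.34 and 0.04. Nucleotide excision genes, 19 measured, had 0 calls and medians of 0.11 and 0.01.

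Targets of the DNA damage response had 0 calls among 23 measured genes, with 4 lower and 3 higher at an unadjusted p under 0.05 and medians of -0.19 and -0.03. CCNG1 stood at 645 and 738 in pair 1, then 483 and 528 in pair 2. MDM2, a ubiquitin ligase, had 195 and 178, then 290 and 206. The next 3 genes were named after their values were seen. CDKN1A, a cyclin kinase inhibitor, had 60.0 and 52.0, then 52.0 and 30.8. BBC3 had 4.79 and 9.07, then 2.12 and 6.13, and FAS had 53.9 and 98.8, then 85.2 and 115. In this list 9 genes (39.1%) were lower in both pairs and 5 (21.7%) higher in both, against 32.5% and 27.8% of all genes.

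Genes of S phase and of division lay further below 0 than the median member. The S phase list, with 23 measured genes, had a median of -0.89 for pair 1 and of -0.78 for pair 2, 3 genes called lower and 22 lower in both pairs. The proliferation list, with 19 measured genes, had medians of -0.75 and -0.92, 0 called and 18 lower in both pairs. RAD51AP1 and EXO1 were the 2 members at or below the S phase median in both pairs. Among 19 E2F and DREAM regulators 0 were called. E2F2 had 34.4 and 13.1, then 37.7 and 21.1 (adjusted p = 0.0565 by limma), and was named after its values were seen. The repressor RBL2, the gene of this list with the highest value, had 578 and 639, then 633 and 627. The part of the share of cycling cells in the members' values was not tested.

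**Figure D3:**
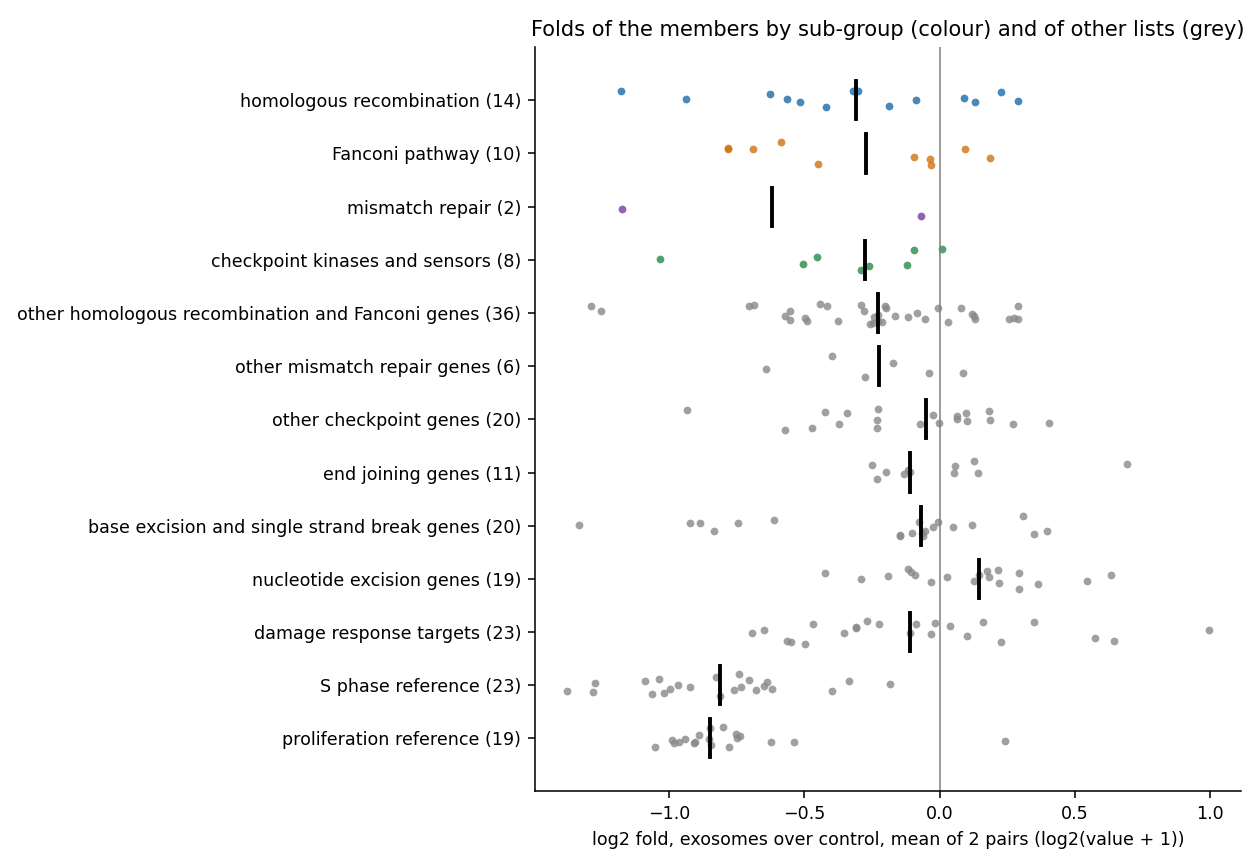
Log2 folds of exosomes over control, as the mean of 2 pairs on the log2(value + 1) scale, with 1 point per gene, members in colour by sub-group, other lists in grey, and a black bar at each median; numbers of genes stand in brackets. Members reach from -1.18 for RAD51AP1 to 0.29 for RAD50, the S phase list has its median at -0.81, and the nucleotide excision list has its median above 0.

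The level of many members differed between the pairs, where dog, sex and any difference in exposure time cannot be told apart. By the pair term of the same limma fit, 10 members were called higher in pair 2 and 1 lower, against 12.7% of all genes in each direction. The 10 were RAD51AP1, BRIP1, CHEK1, EME1, FANCM, EXO1, BLM, RAD54L, PALB2 and BARD1, and the 1 lower was the shared row of CHEK2 and TTC28. RAD51AP1 was higher in pair 2 by 1.46 ± 0.23 on the log2 scale (4 libraries, adjusted p = 0.000531 by limma), and its control libraries stood at 16.6 and 41.5. BRIP1 was higher by 1.17 ± 0.23, with controls at 11.3 and 26.6 (adjusted p = 0.00216 by limma). The row of CHEK2 and TTC28 was lower in pair 2 by a log2 difference of -0.88 ± 0.23 (adjusted p = 0.0151 by limma). MUS81, RAD50 and ATM also had lower means in pair 2, at -0.64, -0.61 and -0.54, and were not called. In total 26 of the 34 members had a higher mean in pair 2, against 50.2% of all genes, and 25 had the higher control there. The S phase list had 16 of 23 genes called higher in pair 2 and the proliferation list 18 of 19. The difference between pairs and the exosome fold come from the same libraries and were not set against each other.

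**Figure D4:**
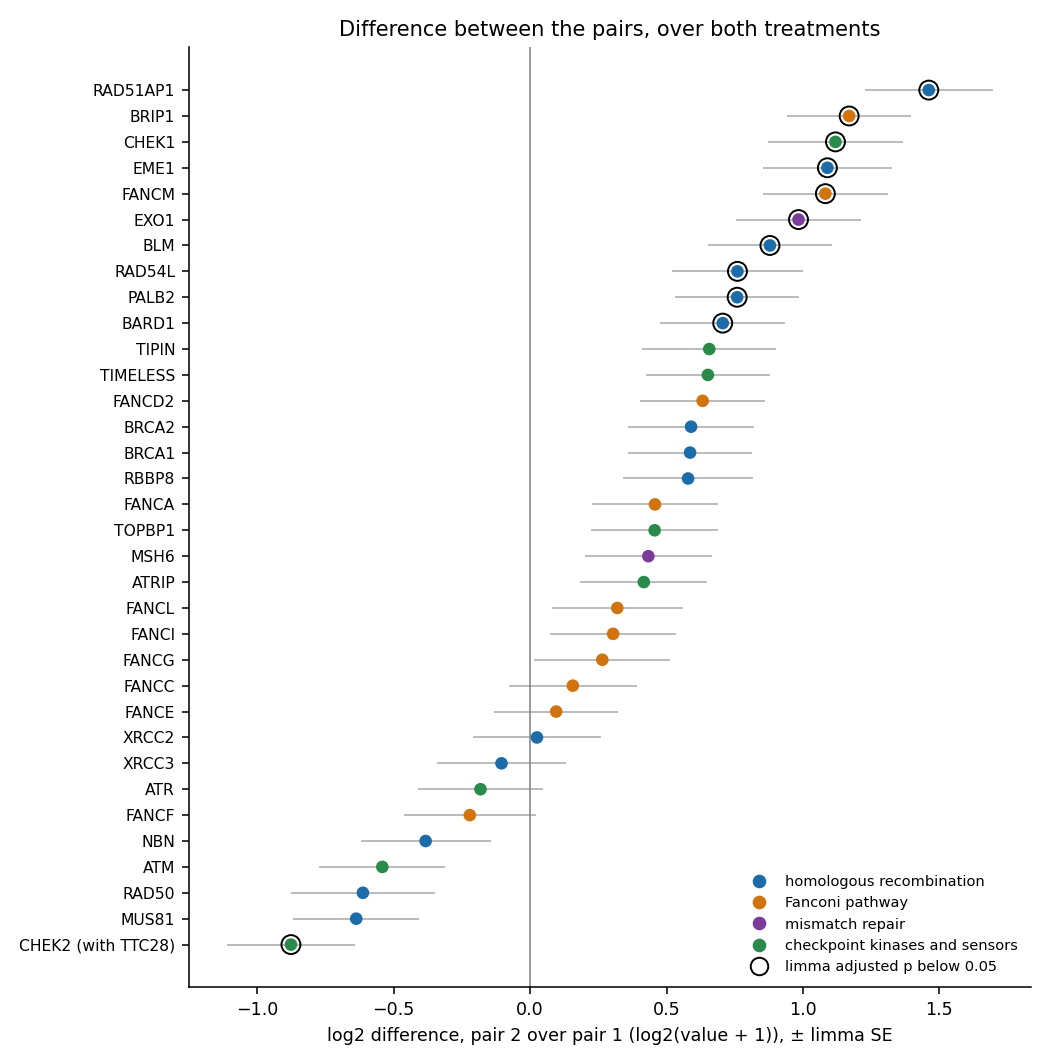
Log2 difference of pair 2 over pair 1 on the log2(value + 1) scale, averaged over control and exosome libraries, for each of the 34 genes in order, with bars of ± 1 limma SE and rings around genes with an adjusted p below 0.05. The 10 ringed genes at the top, led by RAD51AP1 at 1.46, were higher in pair 2, and the ringed row of CHEK2 and TTC28 at the bottom was lower.

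The authors' deposited tables compared 1 library with 1 and so compare libraries rather than conditions. In the authors' deposited table of pair 1, the filtered list held 4 members as lower (6.5% of all genes) and 1 as higher (5.25%), namely RAD51AP1, RAD54L, FANCD2 and CHEK1 against RAD50. In the authors' deposited table of pair 2 it held 7 as lower (2.98%) and 0 as higher (2%), namely BRCA2, RAD51AP1, FANCD2, FANCI, FANCM, EXO1 and TIPIN. RAD51AP1 and FANCD2 were in both lists. A place in a filtered list did not require an adjusted p below 0.05 in the authors' tables, and most listed members were above that value. RAD50 had a log2 fold of 0.77 in the authors' deposited table of pair 1 with an adjusted p of 6.48e-10, and of -0.19 in that of pair 2 with an adjusted p of 0.9999.

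Both calls among the members depended on the test. For RAD51AP1 the adjusted p was 0.17 by edgeR, 0.145 by limma-voom and 0.0346 by DESeq2, each fitted to the recovered reads with pair as block. For EXO1 the corresponding adjusted p-values were 0.17, 0.149 and 0.1. Over all genes DESeq2 called 1.14% lower and 0.658% higher, and among the 32 members with an adjusted p it called RAD51AP1 alone. At an unadjusted p under 0.05, 8 members were lower by DESeq2 and 0 higher, against 5.65% and 3.39% of all genes. Of the 34 members edgeR called 0 and 11 were lower at an unadjusted p under 0.05, against 8.43% of all genes lower and 5.6% higher. By limma-voom 0 members were called and 12 were lower at an unadjusted p under 0.05, against 8.8% lower and 6.06% higher. Without the replicate block limma called 0 members, and 0 had an unadjusted p under 0.05, against 1.05% of all genes lower and 0.736% higher. With a pseudocount of 5 it called 6 members lower (3.49% of all genes) and 0 higher (1.73% of all genes), adding RAD54L, FANCD2, FANCM and CHEK1. Over genes with a mean value of at least 10 it called 7 of 30 tested members lower (5.16% of all genes tested) and 0 higher (2.44%), the same 6 and BRIP1.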

How the data were processed

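Messenger RNA of 4 libraries was analysed, 2 control and 2 exosome, from cultured CD8+ T cells of 2 dogs. Per the submitters' processing notes, reads were handled with Trimmomatic 0.38, HISAT2 2.1.0, featureCounts 1.6.0, FastQC and MultiQC, with CanFam3.1 as the build; the sources used here give neither settings nor strand. Per the file headers and log, the authors reduced 30951 genes to 11838, removed 89 and 58 genes as outliers and compared libraries by DEGseq. Each library's deposited values are a signal: read counts over 1 library factor. A score column deposited beside them holds the mean of the 2 libraries. The authors' log2 folds are exosome over control, and the authors' p-values compare 1 library with 1. Numbers of genes in the authors' log are of another kind and were copied.

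Dividing by the worth of 1 read gave whole reads for 100% of values, within 0.001, and these reads were used; no gene was listed at 0. The deposited factors lay within 0.894% of DESeq2 factors and 1.08% of TMM factors over all 4 libraries, so levels were set across tables. Depth over the 11691 shared genes was 9417298 to 12325953 reads; total depth is unknown. Columns carry times rather than sample names and were assigned to a group only; the table gave the pair, since the authors tested its columns against each other and its name holds the dog's number. Deviations from the group means of the control and exosome library of a pair correlated at 0.818, equal for both pairs by construction.

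The main test was limma 3.58.1 (R 4.3.3) on log2(value + 1) with the pair as block, 1 residual and 11.4 prior degrees of freedom, and Benjamini-Hochberg adjustment over 11691 genes; this scale understates folds of low genes. Pair folds use the same scale. edgeR 4.0.16, limma-voom and DESeq2 1.42.0 on recovered reads, other pseudocounts, filters and scalings, no block, and leaving out each library were alternatives. The scripts were tested on simulated data. A pair's own difference in response could not be tested, because no residual degree of freedom remains. Full statistics were given for called members and, per sub-group, the 3 lowest and 1 highest mean fold with at least 50 reads in the highest library, and up to 4 genes of the highest value per other list. Members and lists were chosen with earlier results of these data known. No sequence or genome was used. Some genes of the other lists are not reported here. By names in RefSeq's table for UU_Cfam_GSD_1.0, all 34 members were found, and 14 overlap another coding gene, so without known strand their reads may be shared.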

Additional observations from a re-analysis of the deposited data

Results flagged for a closer look

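The folds of the 2 pairs, 1 from a female and 1 from a male dog, had opposite signs in 11 members. With 1 library per arm in each pair these differences were not tested. RAD50 had a log2 fold of 0.76 in pair 1 and -0.18 in pair 2, and NBN 0.33 and -0.15. FANCG had -0.26 and 0.45, FANCF -0.10 and 0.48, and FANCL 0.24 and -0.31. XRCC2 had 0.08 and -0.26, MUS81 -0.0029 and 0.26, and FANCA 0.08 and -0.16. MSH6 had 0.10 and -0.24, ATM 0.13 and -0.12, and TOPBP1 0.08 and -0.27. Opposite signs occurred in 39.7% of all genes. With 2 libraries per group no library could be examined for standing apart from its group.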

How the results depend on the processing

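Over all genes the limma fit called 58 lower and 29 higher. DESeq2 called 107 lower and 62 higher, edgeR with RLE factors 7 and 7, a mean value of at least 10 gave 445 and 211, a mean value of at least 20 gave 384 and 219, and a pseudocount of 5 gave 408 and 202. Counts were 0 and 0 with edgeR, limma-voom, a pseudocount of 0.1, TMM scaling, equal totals, no replicate block, and each library left out (range 0 to 0). Members called lower numbered 2, and were 1 with DESeq2, 7 and 4 with the filters at 10 and 20, 6 with a pseudocount of 5, and 0 under edgeR, edgeR with RLE factors, limma-voom, a pseudocount of 0.1, TMM, equal totals, no replicate block and each library left out. At a filter of 20, BRCA2 was among those called (adjusted p = 0.04937 by limma). The number of members with a log2 fold below 0 was 27 in each setting that kept all libraries and genes, 25 and 20 under the filters, which test fewer members, and 22 to 27 with a library left out. Their median of -0.2963 was -0.2623 at a filter of 20, -0.2775 with a pseudocount of 5, -0.2757 with equal totals, and ran from -0.6005 (without control 1) through -0.5455 (without exosome 2) and -0.158 (without exosome 1) to -0.08798 (without control 2) with a library left out, where no block can be fitted and the lone library of a group is assumed to vary like the other group. Members called higher in pair 2 numbered 10, against 6 with DESeq2 and 16 with a filter of 10 or a pseudocount of 5. Members called lower there numbered 1, against 2 with edgeR with RLE factors or limma-voom, 3 with a filter of 10, 4 with a filter of 20 or a pseudocount of 5, and 0 with a pseudocount of 0.1, TMM or equal totals. The cause of these differences was not tested. With 2 libraries per group, 1 residual degree of freedom, and members at as few as 32 reads, small differences may have been missed.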
